A study of Mus musculus with 4 samples.

Results

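The dystrophin-glycoprotein complex links the actin cytoskeleton to the extracellular matrix across the cell membrane. Dystroglycan is its transmembrane core and binds laminins and related matrix proteins outside the cell once it carries the right sugar chains. Dystrophin or its relative utrophin bridges dystroglycan to actin inside the cell, and syntrophins and dystrobrevins attach signalling proteins to that bridge. The complex is best known from muscle, where its loss causes muscular dystrophy. In epithelia it sits at the basal and lateral membrane, with utrophin and short dystrophin isoforms, and dystroglycan contributes to the assembly of basement membranes.

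The 5 genes described here are dystrophin (Dmd), utrophin (Utrn), dystroglycan (Dag1), beta-1 syntrophin (Sntb1) and beta-2 syntrophin (Sntb2), out of 46078 genes counted. They were picked by name with values of these libraries in view, Dmd for being lower in the cells labelled knockout, so their levels are a description and carry no test. RNA was sequenced from MLE-12, an immortalised mouse alveolar epithelial line that serves as a model of type 2 cells. Its 4 libraries were Lingo1 KO 24 hours after a scratch, Lingo1 KO unscratched, WT 24 hours after a scratch and WT unscratched, each condition with 1 library. How the knockout was made, and whether it is 1 clone, is not given in the sources used here. The total counts of the libraries were 48333801, 29533746, 27907279 and 26903429 in that order.

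The labels were checked first. Lingo1, the targeted gene and a leucine-rich repeat membrane protein of the Nogo receptor complex, had 41.3 CPM (counts scaled to 1000000 reads per library) in both libraries labelled knockout, against 42.7 CPM in scratched and 46.7 CPM in unscratched WT cells. Its mRNA was thus not lower by 1.5-fold in either, and the genotype is given below as labelled. Of 10 markers of alveolar type 2 cells, 6 reached 1 CPM in at least 1 library and 2, Sftpa1 and Sftpd, had no read in any. Of 7 epithelial markers 4 reached 1 CPM, with a summed level of 2335, 2187, 2362 and 2317 CPM in the 4 libraries. None of 11 skeletal muscle markers reached 1 CPM, and 8 of them, among them Myod1, Myog and Ckm, had no read.

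Since each condition has 1 library, none of the differences below can be set against the spread between replicate cultures. A ratio below is the ratio of CPM between a pair of libraries, with 95% bounds from the exact binomial (Clopper-Pearson) method applied to how the reads divide between the pair, which cover counting error only. A gene was called higher or lower at a ratio of at least 1.5-fold whose interval excluded 1, and a stricter rule required 2-fold. The background is the 12362 genes with at least 1 CPM in at least 1 library. Of the 5 genes 4 passed that filter, and Sntb1 did not. The comparisons of genotype in scratched and in unscratched cells share no library, but each shares its libraries with the comparisons of scratch.

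Dmd lies on the X chromosome (chrX:82948870-85206141, plus strand, mm10) and spans 2257 kb, which makes it one of the longest genes of the mouse. The GENCODE annotation gives it 14 transcripts, 3 of them protein-coding. The full-length transcript Dmd-203 starts at 82948903 and has 79 exons and 14.91 kb, whereas Dmd-201 and Dmd-202 start at 85048413, far inside the gene, with 18 and 17 exons. The counts are per gene and do not tell these starts apart. RefSeq sequence (GRCm38.p6, the same assembly as mm10) was at hand for 3 of the 5 genes, Dmd, Utrn and Dag1. RefSeq places the corresponding starts at 82948870 and 85048295, slightly upstream of those of the GENCODE coding transcripts. The 250 bases upstream of both RefSeq starts of Dmd are shown because reads from both enter the same Dmd count, and those upstream of the more distal Dag1 start because Dag1 was the most abundant of the 5 genes. Capitals mark the GC box GGGCGG or its reverse complement CCGCCC, runs that overlap being merged.
Dmd upstream start (chrX:82948620-82948869, plus strand): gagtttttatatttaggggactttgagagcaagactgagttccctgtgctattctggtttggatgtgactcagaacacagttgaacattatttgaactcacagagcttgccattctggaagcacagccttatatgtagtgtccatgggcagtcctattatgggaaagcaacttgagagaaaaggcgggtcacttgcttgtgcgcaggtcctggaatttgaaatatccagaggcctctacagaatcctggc
Dmd internal start (chrX:85048045-85048294, plus strand): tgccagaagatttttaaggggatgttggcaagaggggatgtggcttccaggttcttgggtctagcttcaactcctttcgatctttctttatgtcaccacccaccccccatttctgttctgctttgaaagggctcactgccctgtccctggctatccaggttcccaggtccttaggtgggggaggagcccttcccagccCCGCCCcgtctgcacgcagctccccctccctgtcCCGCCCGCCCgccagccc
Dag1 (chr9:108263959-108264208, minus strand): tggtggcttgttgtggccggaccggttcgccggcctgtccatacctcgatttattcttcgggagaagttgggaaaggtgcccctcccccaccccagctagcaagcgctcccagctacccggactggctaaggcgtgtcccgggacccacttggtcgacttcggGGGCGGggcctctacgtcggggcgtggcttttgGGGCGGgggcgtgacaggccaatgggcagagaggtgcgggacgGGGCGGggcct
The window at the upstream Dmd start has 45.2% G and C, 2 CpG dinucleotides and 0 GC boxes. The window at the internal start has 60.0% G and C, 7 CpG and 3 GC boxes. The Dag1 window has 67.6% G and C, 21 CpG and 3 GC boxes. Among all 32851 RefSeq promoter windows of this length, 32.7% hold at least 1 GC box, and the median window has 6 CpG. A match of letters is a description of the window and not a binding site.

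Dmd mRNA was about 2-fold lower in both knockout-labelled libraries. It had 497 counts (10.3 CPM) in scratched and 300 counts (10.2 CPM) in unscratched knockout-labelled cells, against 615 counts (21.9 CPM) in scratched and 569 counts (21.1 CPM) in unscratched WT cells. The WT libraries were the high ones. The exact Poisson intervals had upper bounds of 11.3 and 11.4 CPM in knockout-labelled and lower bounds of 20.2 and 19.4 CPM in WT cells. These bounds cover counting error only, on the values that chose the gene. The ratio of knockout-labelled to WT was 0.471 (0.418 to 0.531) in scratched and 0.481 (0.417 to 0.554) in unscratched cells. Dmd was the only one of the 5 genes called in either comparison. Of all tested genes, 1.92% were called lower after and 3.11% without the scratch, and 1.02% in both. By the 2-fold rule, which Dmd also met, 0.251% of tested genes were lower in both. These comparisons chose the gene, so nothing is read from its place among them by either rule.

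Dmd differed by less than the counting error between scratched and unscratched cells. The ratio of scratched to unscratched cells was 1.02 (0.879 to 1.18) in knockout-labelled and 1.04 (0.924 to 1.17) in WT cells. The difference between these responses was -0.03 on the log2 scale (-0.29 to 0.23), so a difference of either sign within those bounds was not detectable at this depth.

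Utrophin, the autosomal relative of dystrophin and its counterpart in most non-muscle cells, stood slightly higher where Dmd was lower. Utrn (chr10:12382188-12869365, minus strand) had 260.3 CPM in scratched and 319.9 CPM in unscratched knockout-labelled cells, against 224.2 CPM in scratched and 247.5 CPM in unscratched WT cells. The unscratched knockout-labelled library was the highest of the 4. The ratio of knockout-labelled to WT was 1.16 (1.13 to 1.20) in scratched and 1.29 (1.25 to 1.33) in unscratched cells, both under the 1.5-fold minimum. Scratched cells had 0.814 times the unscratched level in knockout-labelled cells (0.792 to 0.836) and 0.906 times in WT cells (0.875 to 0.938). The difference of these responses was -0.15 on the log2 scale (-0.22 to -0.09), beyond counting error and small in size.

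The balance of the dystrophin family can be read inside each library, where library scaling cancels. RPKM, reads per kilobase of transcript and 1000000 reads, corrects for length, and the lengths behind the authors' values equalled the longest annotated transcript of each of the 5 genes within 0.0539%. On that scale Utrn exceeded Dmd by 30.3-fold in scratched and 37.9-fold in unscratched knockout-labelled cells, against 12.3-fold and 14.1-fold in the scratched and unscratched WT cells. The Utrn to Dmd count ratio in knockout-labelled cells was 2.46 times that of WT after the scratch (2.18 to 2.78) and 2.69 times without it (2.33 to 3.10). Dmd made up 3.14% and 2.54% of the summed RPKM of Dmd, Utrn and the relative Drp2 in scratched and unscratched knockout-labelled cells, against 7.37% and 6.53% in WT cells. The Utrn to Dmd ratio and the Dmd share both contain the Dmd difference that chose the gene. The Dag1 to Dmd count ratio shifted as well, by 2.20 times after (1.95 to 2.47) and 2.16 times without the scratch (1.88 to 2.49). Nothing about the family is read from these shifts beyond the ratios of the single genes. The summed RPKM of Dmd, Utrn and Drp2 was 22.1 and 26.8 in scratched and unscratched knockout-labelled cells, against 20.0 and 21.7 in WT cells. The level of Dmd depends on which transcript is assumed. It was 0.693 and 0.681 RPKM in scratched and unscratched knockout-labelled cells, against 1.48 and 1.41 RPKM in WT cells, and would be 2.33, 2.29, 4.97 and 4.76 RPKM if every read came from the 4.438 kb Dmd-201. Utrn exceeded Dmd by either length.

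Dystroglycan was the most abundant of the 5 genes and differed by a few percent with genotype. Dag1 (chr9:108204634-108263958, minus strand) had 149.7 and 154.1 RPKM in scratched and unscratched knockout-labelled cells, against 145.3 and 148.3 RPKM in WT cells, rank 328 of the tested genes by mean RPKM. In CPM its knockout-labelled to WT ratio was 1.03 (1.02 to 1.05) after and 1.04 (1.02 to 1.06) without the scratch. Its scratched to unscratched ratio was 0.97 (0.955 to 0.985) in knockout-labelled and 0.974 (0.956 to 0.992) in WT cells. With 22651 to 40755 counts per library even these few percent exceed counting error, but no replicate shows how far cultures differ.

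The syntrophins are adaptor proteins that bind dystrophin, utrophin and dystrobrevin and hold channels, kinases and transporters at the membrane. Sntb2 (chr8:106935750-107019714, plus strand) had 48.8 CPM in scratched and 49.5 CPM in unscratched knockout-labelled cells, against 51.0 CPM in scratched and 51.1 CPM in unscratched WT cells. Its ratios lay between 0.957 and 0.999 in the 4 comparisons, each with an interval that included 1. Sntb1 (chr15:55636388-55906949, minus strand) was barely detected, at 26 and 12 counts in scratched and unscratched knockout-labelled cells, against 19 and 15 counts in WT cells. The knockout-labelled to WT ratio of Sntb1 was 0.798 (0.425 to 1.53) after and 0.73 (0.312 to 1.67) without the scratch, so a difference of 1.5-fold in either direction was not detectable at this depth. Per length Sntb2 lay at 4.91 to 5.15 RPKM and Sntb1 at 0.0825 to 0.138 RPKM over the 4 libraries.

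The 5 genes kept a fixed order of level in RPKM, Dag1 above Utrn, Sntb2, Dmd and Sntb1. The ranges over the 4 libraries did not overlap between neighbours in that order: Utrn lay at 18.2 to 25.8 RPKM, Sntb2 at 4.91 to 5.15 RPKM and Dmd at 0.681 to 1.48 RPKM.

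Of the 18 genes of the complex as a whole, 11 were tested. In the knockout-labelled cells 0 were called higher and 1 lower after the scratch, and 0 higher and 2 lower without it. Of all tested genes 1.92% and 3.11% were called lower, 3.47% and 3.45% higher, and 5.39% and 6.57% in either direction. Both counts of lower genes include Dmd, which was chosen for being lower, so nothing is read from them. The median log2 ratio of the 11 was -0.06 and -0.05 in these comparisons, against 0.00 and 0.00 over all tested genes. Beside Dmd the other lower gene was alpha-dystrobrevin (Dtna), a dystrophin relative that binds syntrophins. Dtna had 88 and 48 counts in scratched and unscratched knockout-labelled cells, against 73 and 78 counts in WT cells, with a ratio of 0.703 (0.51 to 0.972) after and 0.561 (0.383 to 0.814) without the scratch. Its far more abundant paralog Dtnb, the dystrobrevin of non-muscle tissues, had ratios of 0.864 (0.81 to 0.922) after and 0.813 (0.755 to 0.875) without it. The dystrophin-related gene Drp2 had 60 to 126 counts per library and ratios of 0.98 (0.73 to 1.32) after and 1.12 (0.79 to 1.61) without it.

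The sarcoglycans and sarcospan form a membrane subcomplex that stabilises dystroglycan in muscle. Sgce, the epsilon form found outside muscle, was the most abundant per length and had 96.1 and 101.1 CPM in scratched and unscratched knockout-labelled cells, against 110.9 and 112.4 CPM in WT cells, with ratios of 0.866 (0.828 to 0.907) after and 0.90 (0.855 to 0.947) without the scratch. Sgcb had ratios of 1.13 (1.04 to 1.24) after and 1.05 (0.955 to 1.15) without it, and Sspn of 0.89 (0.781 to 1.01) and 0.967 (0.839 to 1.12). The sarcoglycan genes Sgca, Sgcz and Sgcd stayed below 1 CPM. Sgca had 1 to 6 counts per library, Sgcz 1 to 4 and Sgcd none, which allows up to 0.111 CPM in the shallowest library at a floor of 3 counts. The gamma syntrophins Sntg1 and Sntg2 also had no read.

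**Figure D1:**
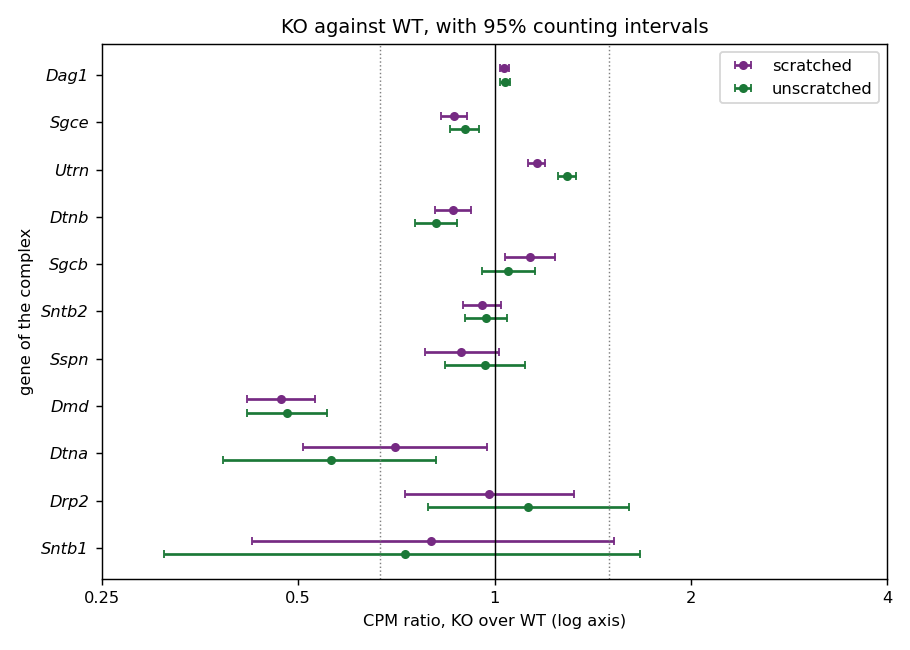
Ratio of CPM in the library labelled Lingo1 knockout (KO) over wild type (WT) for 11 genes of the complex, on a log axis, after the scratch and without it. Bars are exact 95% counting intervals and dotted lines mark 1.5-fold; Dmd lies at 0.471 and 0.481 and is the only gene beyond the lower line in both comparisons.

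No tested gene of the complex was called between scratched and unscratched cells, and 0 of 11 is near the background. None of the 11 tested genes was called in knockout-labelled cells, where 1.29% of tested genes were (0.51% higher, 0.777% lower), and none in WT cells, where 2.6% were (0.51% higher, 2.09% lower). Their median log2 ratio was -0.02 in knockout-labelled and -0.04 in WT cells, against -0.00 and 0.00 over all tested genes. Among them Utrn in knockout-labelled cells had the lowest ratio, 0.814, and Drp2 in WT cells the highest, 1.20 (0.843 to 1.71).

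**Figure D2:**
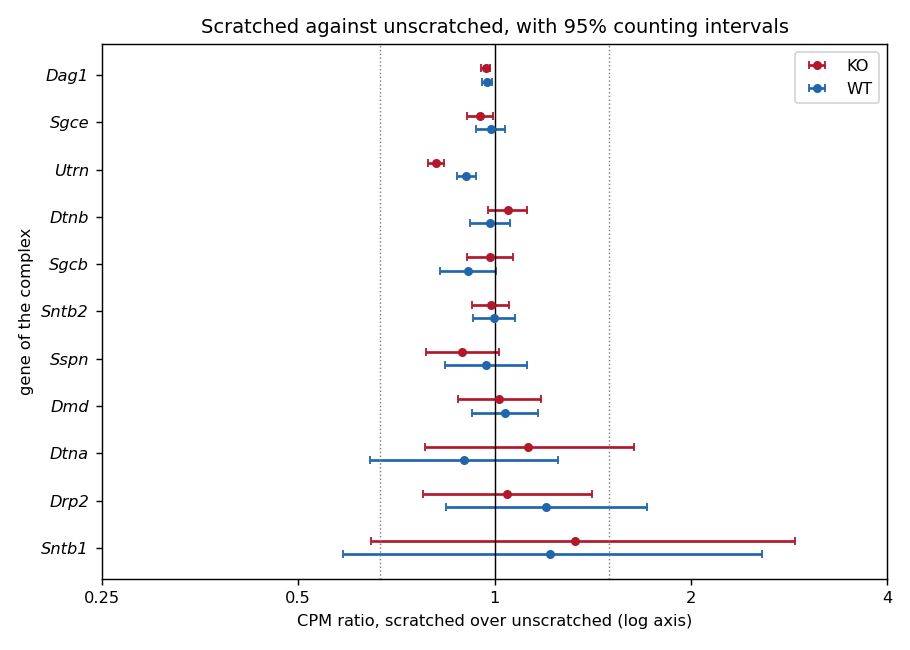
Ratio of CPM in scratched over unscratched cells for the same 11 genes, on a log axis, in cells labelled Lingo1 knockout (KO) and in wild type (WT). Bars are exact 95% counting intervals and dotted lines mark 1.5-fold; no gene that was tested lies beyond a dotted line, and Utrn lies at 0.814 in KO and 0.906 in WT.

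The genes of the enzymes that build the laminin-binding sugar on dystroglycan all reached 1 CPM in at least 1 library, and none was called with genotype. All 19 were tested, and in the knockout-labelled cells 0 were called higher and 0 lower in either comparison, with a median log2 ratio of -0.00 after and 0.01 without the scratch. Of all tested genes 5.39% and 6.57% were called, so 0 of 19 is near the background. The gene with the most reads was Pomgnt1, which extends the O-mannose chain, at 99.1 and 98.7 CPM in scratched and unscratched knockout-labelled cells, against 122.2 and 121.9 CPM in WT cells. Its ratio was 0.811 (0.776 to 0.848) after and 0.81 (0.77 to 0.852) without the scratch. After the scratch 0 of the 19 were called in knockout-labelled cells, where 1.29% of all tested genes were. In WT cells 1 was lower, the dolichol-phosphate mannose synthase subunit Dpm1 at 0.538 (0.381 to 0.753), on 56 counts in scratched and 100 in unscratched cells, where 2.6% of all tested genes were called.

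Among the matrix ligands of dystroglycan 5 of 11 were tested. Biglycan (Bgn), a small proteoglycan that binds dystroglycan, was called in both knockout comparisons, with 930 and 650 counts in scratched and unscratched knockout-labelled cells, against 8 and 8 counts in WT cells. That is a ratio of 67.8 (34.3 to 157) after and 74.1 (37.4 to 172) without the scratch. Of all tested genes 3.47% were called higher after and 3.45% without the scratch, and 2.16% in both. The other tested ligands stayed under 1.5-fold. Perlecan (Hspg2), the most abundant, was at 1.13 (1.11 to 1.15) after and 1.04 (1.02 to 1.06) without the scratch, the laminin chain Lama5 at 1.39 (1.36 to 1.42) and 1.33 (1.31 to 1.36), and agrin (Agrn) at 0.764 (0.744 to 0.786) and 0.71 (0.689 to 0.732). Lama1 and Lama2, chains of the laminins that dystroglycan binds in many tissues, reached at most 1 and 11 counts. After the scratch all 5 tested ligands had a ratio below 1 in both genotypes, with medians of -0.19 in knockout-labelled and -0.37 in WT cells on the log2 scale. In either genotype 0 of the 5 were called, near the background of 1.29% in knockout-labelled and 2.6% in WT cells.

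Of 14 cytoplasmic partners 11 were tested. In knockout-labelled cells 1 was called higher and 0 lower after the scratch, and 2 higher and 0 lower without it, where 3.47% and 3.45% of all tested genes were called higher. Abca1, a cholesterol exporter that syntrophins bind, was higher in both, with 9.46 and 11.3 CPM in scratched and unscratched knockout-labelled cells, against 2.18 and 3.12 CPM in WT cells, and ratios of 4.35 (3.32 to 5.78) after and 3.64 (2.86 to 4.68) without the scratch. The ankyrin gene Ank3 was called higher without a scratch at 2.28 (1.29 to 4.19), on 45 and 18 counts in knockout-labelled and WT cells. After the scratch Ank3 was called lower in knockout-labelled cells at 0.627 (0.407 to 0.968), the only tested partner called in a scratch comparison (0.777% of all tested genes were called lower there), and both calls use the same unscratched library. The partner with the most reads was caveolin-1 (Cav1), with ratios of 0.944 (0.934 to 0.954) after and 0.871 (0.86 to 0.881) without the scratch. Nos1, a nitric oxide synthase that syntrophins bind in muscle, had 0 to 8 counts per library.

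**Figure D3:**
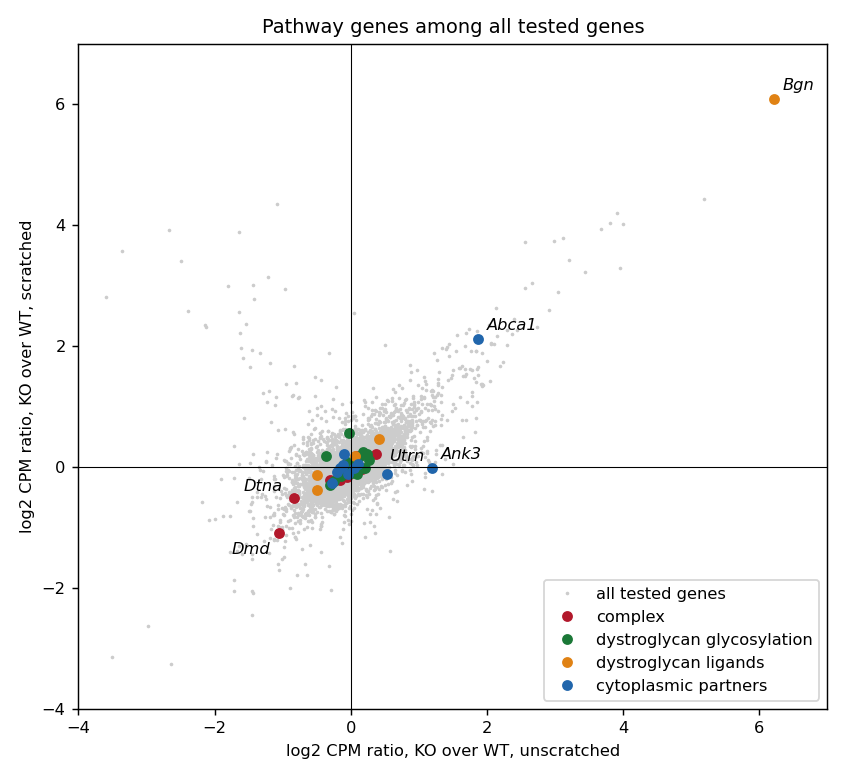
Log2 CPM ratio of KO over WT in unscratched cells (horizontal) and in scratched cells (vertical) for all tested genes with a finite ratio (grey) and the tested genes of the 4 pathway lists (colours). Dmd lies near -1.06 and -1.09, Bgn and Abca1 stand far on the higher side, and most other listed genes lie close to 0 on both axes.

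Dmd is X-linked and long, so its neighbours and genes like it in length are given beside it. The 407 tested X-linked genes had a median log2 ratio of knockout-labelled to WT of -0.00 after and 0.00 without the scratch, with 9 and 13 called lower and 8 and 11 called higher. Of all tested genes 1.92% and 3.11% were called lower and 3.47% and 3.45% higher. The nearest tested genes downstream were Tab3, 368 kb away, with ratios of 0.954 (0.885 to 1.03) after and 0.822 (0.757 to 0.893) without the scratch, and Gk, 496 kb away, with 1.03 (0.909 to 1.17) and 0.856 (0.742 to 0.987). Upstream the nearest were the pseudogene Rps24-ps3, at -3753 kb, with ratios of 1.03 (0.853 to 1.24) and 1.32 (1.08 to 1.63), and Prrg1, at -4365 kb, with 0.996 (0.841 to 1.18) and 0.829 (0.69 to 0.995). None of these 4 was called. The 84 tested genes spanning at least 500 kb had a median log2 ratio of -0.04 after and 0.00 without the scratch, with 4 and 6 called lower and 7 and 10 called higher, against the same shares of all tested genes. No annotated gene shared an exon with Dmd, and the 5 genes that lie within its span had no read.

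**Figure D4:**
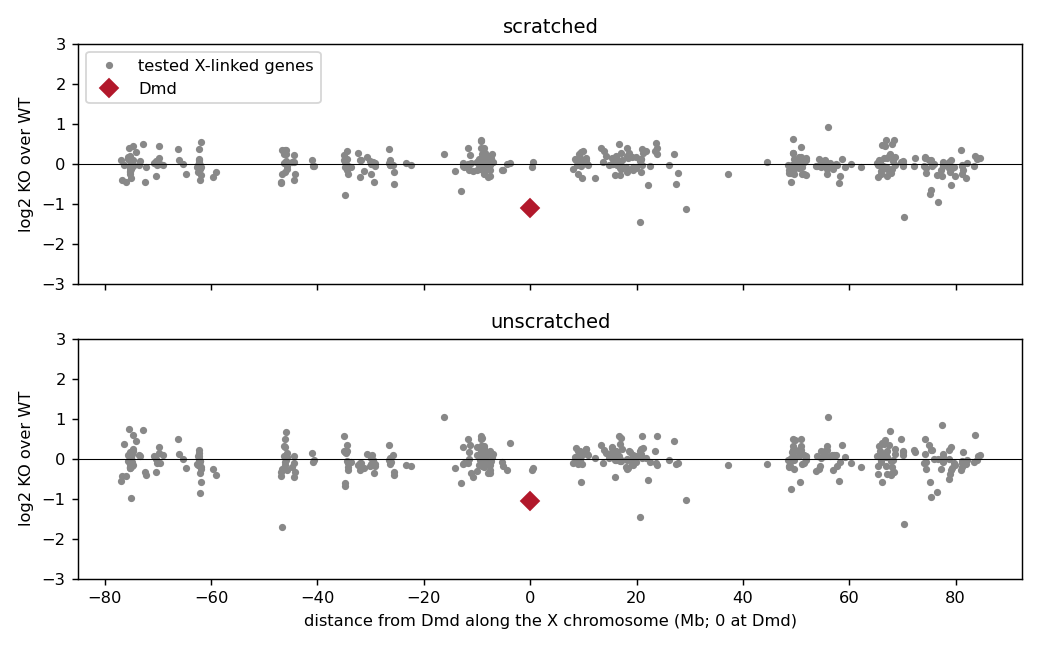
Log2 CPM ratio of KO over WT for tested X-linked genes against their distance from Dmd in Mb (0 at Dmd), after the scratch (top) and without it (bottom). Dmd (diamond) lies near -1.1 in both panels while its 4 nearest tested genes lie between -0.07 and 0.04 after the scratch and between -0.28 and 0.40 without it; Bgn, above 6, is outside the drawn range.

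Some markers of other cell types also differed with genotype. Of 8 fibroblast markers 4 were tested and 3 (Col1a1, Pdgfra and Pdgfrb) were called higher in knockout-labelled cells in both comparisons, with Col1a1 at 176.2 and 197.3 CPM in scratched and unscratched knockout-labelled cells, against 16.4 and 21.4 CPM in WT cells. The summed level of the list was 2652, 2919, 2823 and 2888 CPM in scratched and unscratched knockout-labelled and scratched and unscratched WT cells, most of it Dcn, while Col1a2, Lum and Tcf21 had at most 2 counts. Of the type 2 cell markers Sftpb and Sftpc were called higher in both, and Napsa was called lower after the scratch at 0.616 (0.416 to 0.914). Of all tested genes 2.16% were called higher in both comparisons and 1.92% lower after the scratch. In either direction 5.39% were called after and 6.57% without the scratch. The summed level of the type 2 cell list was 565 and 599 CPM in scratched and unscratched knockout-labelled cells, against 470 and 519 CPM in WT cells. In the lists for smooth muscle (6 markers), endothelium (8), leukocytes (7) and neurons or glia (7), 1 marker each was tested. Of these tested markers 0 were called with genotype. The summed level over the 4 libraries was 23.1 to 26.5 CPM for smooth muscle and 179 to 221 CPM for endothelium. It was 1.79 to 2.14 CPM for leukocytes and 56.8 to 60.8 CPM for neurons or glia. Within these lists Ptprc, Cdh5 and Snap25 had no read. The part of any of this in the Dmd difference was not tested. In bulk RNA fewer cells that carry a transcript and less of it per cell cannot be told apart.

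The genes whose profile over the 4 libraries was most like that of Dmd were found among 10302 genes of at least 5 CPM on average, by the Euclidean distance of log2 CPM centred on each gene's mean. The 5 nearest were Ctnna2 (distance 0.07), a neuronal catenin, Sema3e (0.10), a secreted semaphorin, Igfbp3 (0.10), an IGF-binding protein, Dock3 (0.11), a guanine exchange factor, and Popdc3 (0.11), a Popeye domain protein. Ctnna2, the nearest, had 32.9 and 34.6 CPM in scratched and unscratched knockout-labelled cells, against 71.5 and 69.7 CPM in WT cells. The 5 nearest to Utrn were the ribosomal protein pseudogene Rpl37rt, whose reads may be shared with its parent gene, and Vps13c, Huwe1, Syngr1 and 4932438A13Rik, at distances of 0.02 to 0.06. Vps13c had 45.7 and 54.2 CPM in scratched and unscratched knockout-labelled cells, against 38.4 and 43.4 CPM in WT cells. Those nearest to Sntb1 were Ptgs2, Apex2, 2610307P16Rik, Gbe1 and Med27, but the Sntb1 profile rests on 12 to 26 counts per library. Over 4 libraries such closeness is a description only. The profiles of Dag1 and Sntb2 spanned too little for a comparison, 0.09 and 0.07 on the log2 scale.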

How the data were processed

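Total RNA came from a Qiagen kit and went into an Illumina stranded mRNA preparation, per the labels' protocols. The authors deposited raw read counts for 46078 Ensembl genes and RPKM values (reads per kilobase of gene length and 1000000 reads) for 14844 of them, of which 161 rows hold no number. Per the submitters' processing notes, the build was mm10 and the tools were HTSeq 0.11.3, STAR 2.7.9a, edgeR 3.32.1 and Trimmomatic 0.39, with no role stated for any. For the annotation release and the strand setting, the sources used here give nothing. Columns were matched to samples by genotype and by the letter for scratch, and the other letter was read as unscratched. No gene with an RPKM value had under 12 reads in all.

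Names came from the authors' RPKM table or a reference list that held 45143 of the identifiers, and positions from GENCODE M21 (mm10). TMM factors (0.995 to 1.005; edgeR 4.0.16, R 4.3.3) scaled the counts. Ratios, intervals and figures were made with scipy 1.17.1, matplotlib 3.10.9, pandas 2.3.3 and numpy 2.4.6 under Python 3.11.15. The calls were tried on simulated counts that held counting error only, which says nothing of the spread between cultures. No p-value was computed. No molecular identifiers are stated, so intervals and floors (3 counts, 0.0624 to 0.111 CPM) cover counting error only. Alternatives were total counts, DESeq2 1.42.0 size factors, upper quartile factors, the authors' RPKM with a pseudocount of 0.1 or 1, other filters on low counts and a 2-fold minimum.

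The members and lists were chosen with earlier results of these data known. Named genes are the 5 members, the tested genes of the complex, listed genes called in both knockout comparisons, the most abundant gene of each list, the nearest profiles and the nearest tested neighbours of Dmd; other named genes were chosen after their values were seen. Some genes of the lists enter the counts and medians but are not reported here by name.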

Additional observations from a re-analysis of the deposited data

Results flagged for a closer look

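For 3 pathway genes the same contrast pointed in opposite directions in the scratched and unscratched cells, or in the knockout-labelled and WT cells, each beyond counting error and each under 1.5-fold. The share of all tested genes that do the same was not computed, so the number of such genes is not read as a result. Whether these effects differ was not tested, since each condition has 1 library. Plectin (Plec), a cytoskeletal linker, had a knockout-labelled to WT ratio of 1.15 (1.13 to 1.18) in scratched and 0.933 (0.915 to 0.953) in unscratched cells. Keratin 19 (Krt19), which binds dystrophin in muscle, had a scratched to unscratched ratio of 1.08 (1.06 to 1.09) in knockout-labelled and 0.979 (0.965 to 0.994) in WT cells. The kinase gene Mark2 was at 1.05 (1.01 to 1.09) in knockout-labelled and 0.949 (0.908 to 0.992) in WT cells.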

How the results depend on the processing

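Of 125 recomputed values of the 5 genes 123 stayed within the counting interval of the reported value and none of the values called changed sign. The other 2 were Dmd with the authors' RPKM and a pseudocount of 1, at -0.55 after and -0.52 without the scratch on the log2 scale, which the pseudocount itself brings about at these low RPKM; with a pseudocount of 0.1 and with every other library scaling Dmd stayed within its interval. Calls over all tested genes numbered 666 and 812 for the knockout comparisons after and without the scratch, 159 for the scratch in knockout-labelled and 321 in WT cells. With at least 5 CPM they were 280, 361, 28 and 79 in that order, and with a 2-fold minimum 254, 298, 36 and 118. Without a filter the scratch in knockout-labelled cells gave 367. Over the 4 pathway lists, with 46 tested genes, the calls were 3, 5, 1 and 1. Of all tested genes 5.39%, 6.57%, 1.29% and 2.6% were called in that order. The calls in both knockout comparisons include Dmd, which was chosen for being lower there. With at least 5 CPM the count without the scratch was 3 and both scratch counts were 0, with a 2-fold minimum both scratch counts were 0, and without a filter the knockout-labelled scratch count was 3. These filters and minimums change which genes can be called by construction. No paired analysis was possible because each condition has 1 library and the labels give no replicate numbers. No library could be left out without losing its condition. Depth limits Sntb1, Dtna, Drp2 and Ank3, at 12 to 126 counts per library.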

Other observations

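Dmd is among 15 tested genes that span at least 1 Mb, a length chosen after the values were seen. Of these, 3 were called lower and 1 higher in knockout-labelled cells after the scratch, and 3 lower and 1 higher without it, where 1.92% and 3.11% of all tested genes were called lower and 3.47% and 3.45% higher. Both counts of lower genes include Dmd, which was chosen for being lower, so nothing is read from them. Dmd and the catenin gene Ctnna2, which span 2257 kb and 1098 kb, were lower in both comparisons. Fgfr2, the longest of the 15 at 2961 kb, was higher in both, with ratios of 2.12 after and 2.50 without the scratch. The teneurin gene Tenm2, at 90.0 and 93.0 CPM in scratched and unscratched knockout-labelled cells, against 90.1 and 92.8 CPM in WT cells, had ratios of 0.998 and 1.00.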
